A study of Mus musculus with 6 samples.

Results

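Transcripts of glycosyltransferase genes were measured in E0771 cells, a mouse mammary carcinoma cell line, by RNA sequencing. The genes were chosen by their symbols alone, as all rows of the count table named Galnt, Galntl, St3gal, St6gal (St6galnac included), St8sia, B4galt, B3gnt, B3galt, Gcnt, Fut or C1galt1. These are 77 of 55571 rows, of which 74 are enzyme or chaperone genes and 3 are a pseudogene (Fut4-ps1) or antisense transcripts (Galnt6os, St8sia3os). No measured value enters that rule, but the group was proposed with results of the same comparison known. The numbers of genes that changed, and their medians, are therefore a description, and nothing is read from them.

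One group of 3 libraries came from E0771 cells with a vector control and the other 3 from E0771 cells expressing wild-type Malt1 (Malt1-WT), both at basal condition. Malt1 encodes a paracaspase that acts upstream of NF-kB. The labels give neither the promoter of the construct nor the number of clones, and they do not say whether libraries are from independent cultures. The p-values therefore measure the spread among these 6 libraries alone, and that spread could be technical. In bulk RNA, fewer cells expressing a gene and less of its RNA per cell cannot be told apart. Malt1 itself was counted 517, 633 and 611 times in the vector control libraries and 5526, 6176 and 5087 times in the Malt1-WT libraries, a log2 fold change of 3.34 (SE 0.042, edgeR quasi-likelihood adjusted p = 4.11e-50).

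Total counts ranged from 17601656 to 20543778 per library. Among markers of epithelial cells, Krt8 (68.6 CPM, the TMM-scaled count relative to library size, in the vector control against 59.7 CPM in Malt1-WT) and Epcam (6.31 and 6.23 CPM) were present. Krt5 was at 0 in all libraries and the other 8 markers, Krt18 and Cdh1 among them, averaged at most 0.315 CPM in either group. The mesenchymal transcript Vim was at 3087 and 1658 CPM, and the 11 mesenchymal or fibroblast markers together were at 3847 to 4004 CPM in the vector control and 2405 to 2418 CPM in Malt1-WT, with 7 of 9 tested ones lower and Thy1 at 0. The 12 leukocyte markers together reached 22.3 to 26.1 CPM and 28.5 to 32.5 CPM, with Tyrobp and Cd8a at 0 in all 6 libraries, and the 6 endothelial markers 4.58 to 5.84 CPM and 10.3 to 10.8 CPM, with Cldn5 and Emcn at 0. Of 5 tested leukocyte markers 2 were higher (Cd68, 4.48 to 14.4 CPM, and Adgre1, 0.0532 to 1.47 CPM) and 2 lower (Lyz2, 3.78 to 0.741 CPM, and Fcer1g, 14.8 to 12.2 CPM), and of 2 tested endothelial markers Pecam1 was higher (4.77 to 9.69 CPM). Adgre1 (2, 1 and 0 counts against 21, 32 and 28) passed the low-count filter only through Malt1-WT. Lyz2 (72, 92 and 57 counts against 5, 19 and 17) would not have passed on its Malt1-WT libraries alone. The part of these marker differences in the results was not tested.

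These enzymes build parts of the sugar chains of glycoproteins and glycolipids, most of them in the Golgi apparatus. Galnt enzymes start mucin-type O-glycans by placing N-acetylgalactosamine on serine or threonine, C1galt1 and Gcnt enzymes build the cores and branches, and B4galt, B3galt and B3gnt enzymes extend the chains. Sialyltransferases cap the chains with sialic acid in α2,3, α2,6 or α2,8 linkage, and fucosyltransferases add fucose. Several of these enzymes compete for the same acceptor sugars, and altered sialylation and truncated O-glycans are well-known features of carcinoma cells.

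In Malt1-WT the galactosyltransferase gene B4galt3 rose 4.94-fold, the α2,3-sialyltransferase gene St3gal3 2.86-fold and the O-glycan-initiating gene Galnt3 2.60-fold. The α2,6-sialyltransferase gene St6gal1 fell 2.78-fold, Fut10 1.92-fold and St6galnac6 1.70-fold (edgeR adjusted p of at most 6.03e-13 for these 6 genes). Galnt15 fell from 67, 86 and 93 counts to 2, 1 and 1 counts.

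The promoters of the 3 members that rose and the 2 that fell at least 2-fold are shown because these 5 genes changed most. St6gal1 has 3 starts in the RefSeq table and the others 1 each. Each sequence runs from 250 bases before to 50 bases after the RefSeq start (GRCm38.p6), 5′ to 3′ on the gene's strand. Capitals mark GGGCGG, TGACGTCA and TGANTCA on either strand.
B4galt3 (chr1:171270078-171270377, plus strand): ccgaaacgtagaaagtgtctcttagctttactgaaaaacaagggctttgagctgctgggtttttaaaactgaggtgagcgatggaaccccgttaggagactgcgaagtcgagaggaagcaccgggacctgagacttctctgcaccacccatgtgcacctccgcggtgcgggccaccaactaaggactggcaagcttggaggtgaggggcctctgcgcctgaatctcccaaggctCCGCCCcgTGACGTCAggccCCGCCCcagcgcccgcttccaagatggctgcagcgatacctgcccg
St3gal3 (chr4:118134897-118135196, minus strand): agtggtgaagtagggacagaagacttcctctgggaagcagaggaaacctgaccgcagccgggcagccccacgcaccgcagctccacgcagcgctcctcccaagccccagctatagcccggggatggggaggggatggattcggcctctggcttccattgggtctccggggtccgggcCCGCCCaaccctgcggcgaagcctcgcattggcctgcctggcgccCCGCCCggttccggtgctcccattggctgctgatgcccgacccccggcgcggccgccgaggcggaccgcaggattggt
Galnt3 (chr2:66124744-66125043, minus strand): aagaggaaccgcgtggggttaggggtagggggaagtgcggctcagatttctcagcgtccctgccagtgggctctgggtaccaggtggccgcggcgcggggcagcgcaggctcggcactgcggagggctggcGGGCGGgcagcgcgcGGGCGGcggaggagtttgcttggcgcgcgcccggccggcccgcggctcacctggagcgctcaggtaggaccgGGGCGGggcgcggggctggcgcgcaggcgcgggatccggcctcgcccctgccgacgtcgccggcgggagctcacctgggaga
Galnt15 (chr14:32028853-32029152, plus strand): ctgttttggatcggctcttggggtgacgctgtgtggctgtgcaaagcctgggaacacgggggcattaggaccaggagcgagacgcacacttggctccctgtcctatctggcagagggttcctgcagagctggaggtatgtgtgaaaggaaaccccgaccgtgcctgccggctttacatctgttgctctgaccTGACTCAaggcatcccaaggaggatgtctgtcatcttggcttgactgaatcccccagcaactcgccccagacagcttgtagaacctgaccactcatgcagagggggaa
St6gal1, the first start (chr16:23224490-23224789, plus strand): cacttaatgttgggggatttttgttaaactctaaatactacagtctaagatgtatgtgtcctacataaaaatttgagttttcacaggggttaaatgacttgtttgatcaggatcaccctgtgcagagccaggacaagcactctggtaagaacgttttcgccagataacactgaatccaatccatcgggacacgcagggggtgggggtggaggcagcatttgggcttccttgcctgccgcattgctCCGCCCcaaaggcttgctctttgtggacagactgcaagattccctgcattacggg
St6gal1, the second start (chr16:23225771-23226070, plus strand): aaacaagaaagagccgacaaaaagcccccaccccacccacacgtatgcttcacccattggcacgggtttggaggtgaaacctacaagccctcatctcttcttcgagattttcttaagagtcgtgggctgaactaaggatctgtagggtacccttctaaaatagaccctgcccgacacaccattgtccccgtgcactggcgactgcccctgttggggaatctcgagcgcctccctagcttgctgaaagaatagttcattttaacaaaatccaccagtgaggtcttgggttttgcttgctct
St6gal1, the third start (chr16:23290220-23290519, plus strand): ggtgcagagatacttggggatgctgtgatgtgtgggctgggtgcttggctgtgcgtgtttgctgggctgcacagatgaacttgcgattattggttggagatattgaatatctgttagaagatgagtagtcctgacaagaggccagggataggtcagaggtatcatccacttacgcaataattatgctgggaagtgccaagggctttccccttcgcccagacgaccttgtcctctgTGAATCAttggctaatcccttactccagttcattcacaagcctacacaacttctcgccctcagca

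The 3 promoters of rising genes held 59.7% (B4galt3), 70.0% (St3gal3) and 76.7% (Galnt3) G or C and 19, 26 and 41 CpG dinucleotides. The Galnt15 promoter held 57.3% and 9, and the 3 St6gal1 windows, in order, 48.0%, 50.7% and 49.7% with 7, 10 and 6. The medians were 52.7% and 7 over all 32851 RefSeq promoter windows of this length. These include windows of genes that were not tested, and medians over tested genes alone were not taken. GGGCGG, the GC box, occurred 2 times in the B4galt3 window, 2 times in St3gal3, 3 times in Galnt3 and 1 time in the first St6gal1 window. It was in 35.7% of all windows, 61.3% of the 12294 windows of tested genes and 56.8% of the 37 windows of tested members. TGACGTCA, the cyclic AMP response element, lay between the 2 GC boxes of B4galt3, directly before the start, and occurred in 1.79% of all windows and 3.06% of those of tested genes. TGANTCA includes the AP-1 site, whose forms are TGACTCA and TGAGTCA. It occurred 1 time in the Galnt15 window, as TGACTCA, and 1 time in the third St6gal1 window, as TGAATCA, which is not an AP-1 form. TGANTCA was in 7.81% of all windows and 5.43% of those of tested genes. The NF-kB consensus, searched on both strands, was in none of these 7 windows. It was in 5.41% of the windows of tested members, those of B4galt7 and St3gal6, against 5.2% for tested genes and 4.51% for all windows. The marked motifs do not overlap each other, and a match describes letters only.

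Of the 77 rows, 34 had enough counts to be tested and 43 did not. Of those 43, 17 had no count in any library, including B3galt1, B3galt5, B3gnt4, B3gnt5, Galnt5, Galnt12, Galnt13, Galnt14, Galnt18, Galntl5, St6gal2, St8sia2, St8sia3 and St8sia4. In one library a count of 0 allows up to 3 counts, which is 0.146 to 0.17 CPM at these depths, for counting error only. The other 26 had at most 12 counts in a library. All 6 St8sia genes, whose enzymes make polysialic acid and disialylated gangliosides, were among the untested rows, with 0 to 2 counts per library. Fut1, Fut2, Fut7 and Fut9, which make H antigens, sialyl Lewis x and Lewis x, had 0 to 8 counts per library. Galnt10 had 2, 0 and 2 counts in the vector control against 7, 6 and 6 in Malt1-WT, a ratio of 5.06 (95% exact counting interval 1.68 to 20.4). In the other direction, St6galnac2 had 12, 4 and 2 counts against 2, 0 and 1 (5.63-fold lower in Malt1-WT, 1.64 to 29.9), Fut2 had 8, 5 and 6 against 4, 1 and 1 (2.97-fold lower, 1.14 to 9.10) and Gcnt4 had 4, 1 and 2 against 0 in each. Gcnt7 had 2, 2 and 5 against 6, 5 and 11 (2.60-fold higher, 1.15 to 6.42). These 5 genes were picked out after their values were seen. Galnt6 and St6galnac1 were picked in the same way, and their intervals include 1. Galnt6 had 0, 1 and 1 counts against 4, 3 and 2 (4.79-fold higher, 0.992 to 45.6). St6galnac1 had 2, 1 and 1 counts against 0 in each (lower in Malt1-WT, lower limit of the ratio 0.62). Such intervals pool the libraries of a group and leave out the spread among libraries. No untested row was called when the filter on low counts was dropped.

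Of the 34 tested genes, 28 passed the edgeR test at an adjusted p under 0.05, 14 higher and 14 lower in Malt1-WT. Over all 13594 tested genes 61.2% were called, 31% higher and 30.2% lower, so a call by itself is common in this comparison. At least 2-fold changes were seen for 3 members that rose, against 8.35% of tested genes, and for 2 that fell, against 4.77%. Of the 28 called members 20 changed less than 1.5-fold. The libraries of the groups did not overlap for 29 members, against 64.4% of tested genes. The median log2 fold change was 0.07 over the tested members and -0.0029 over all tested genes, and the median size was 0.35 and 0.31. In the authors' deposited table, 4 of the tested members (B4galt3, St3gal3, St6gal1 and Galnt15) have an adjusted p under 0.05. Galnt3, with a log2 fold change of 1.36 in that table, has an adjusted p of 0.865. The 29 tested members with an absolute log2 fold change under 1 have a t statistic of 0 there. The test behind the deposited values is not named. A t of 0 for every member under 1 is the pattern of a test against an absolute log2 fold change of 1. The test used here is against 0, so these 4 and the 28 called here do not answer the same question. Nor does the adjusted p of Galnt3 there bear on a change from 0.

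**Figure D1:**
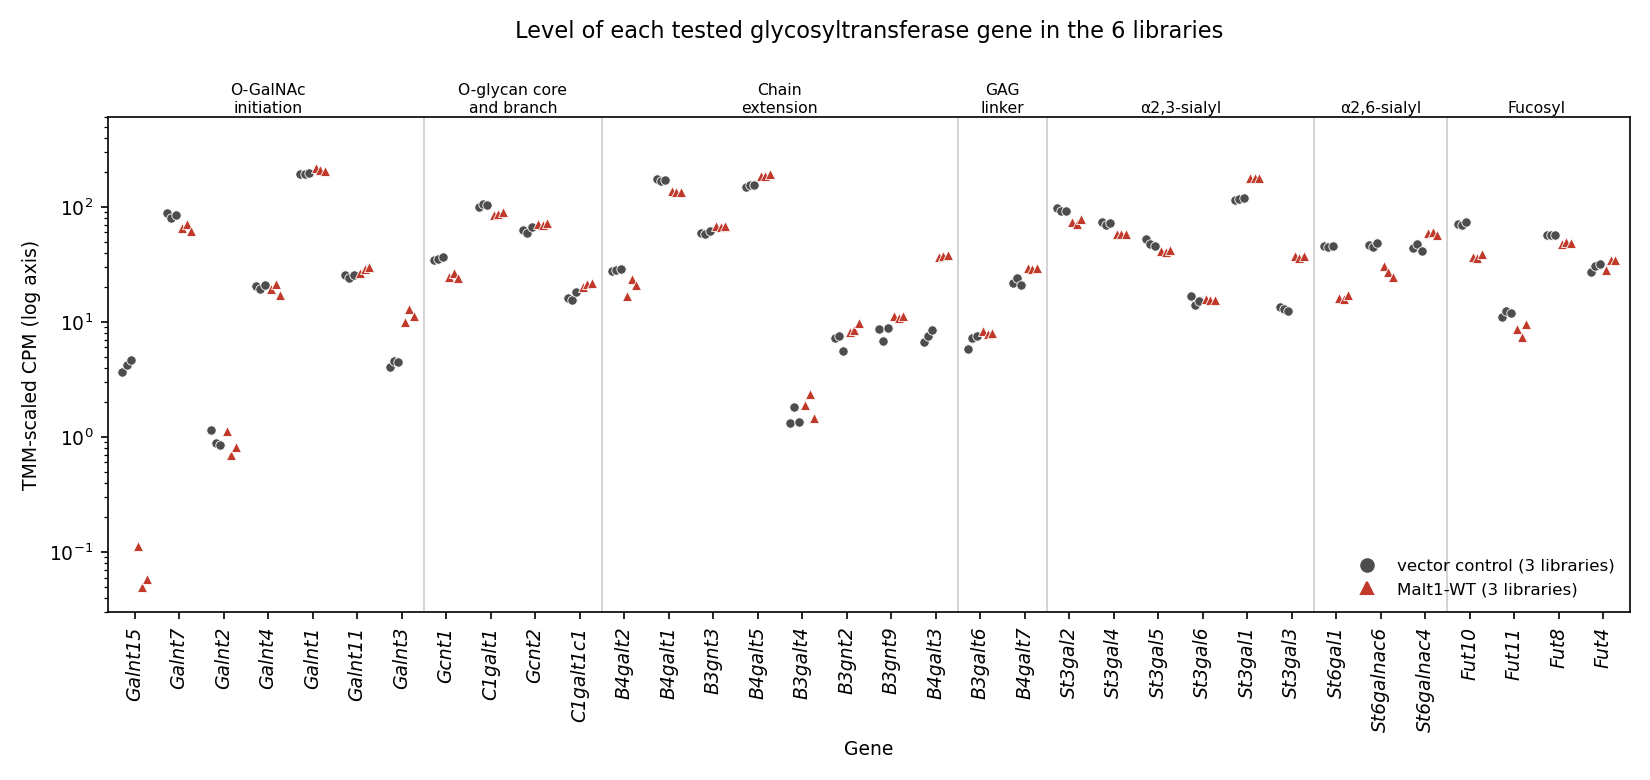
Level of each tested glycosyltransferase gene (x axis, grouped by role) in TMM-scaled CPM on a log axis, with 1 point per library (circles, vector control; triangles, Malt1-WT). Galnt15 lies between 3.70 and 4.62 CPM in the vector control and at or below 0.112 CPM in Malt1-WT, and B4galt3 between 6.68 and 8.45 CPM and between 37.0 and 38.3 CPM.

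Among the genes that start O-glycans, 7 of 19 were tested, with 3 higher, 2 lower and 2 that did not pass (median log2 fold change -0.06). Galnt3, whose enzyme is known for glycosylating the hormone FGF23, was at 4.03, 4.57 and 4.53 CPM in the vector control against 9.90, 13.0 and 11.2 CPM in Malt1-WT. Every Malt1-WT library was above every vector control library, with a log2 fold change of 1.38 (SE 0.134, adjusted p = 6.03e-13). Galnt3 lies on chromosome 2 (66082766 to 66124994, minus strand, GRCm38). Galnt15 (chromosome 14, 32028989 to 32062197, plus strand) was at 3.70, 4.22 and 4.62 CPM in the vector control against 0.112, 0.0499 and 0.0585 CPM in Malt1-WT. Its summed counts of 246 and 4 give a ratio of 57.7, with a 95% exact counting interval of 22.3 to 214 (fitted log2 fold change -5.73, SE 0.410, adjusted p = 1.56e-17). Galnt15 passed the low-count filter only through the vector control libraries.

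The abundant enzymes of this step changed less. Galnt1, which acts on a broad range of peptides and had the highest level per kilobase of exon among these genes, was at 193, 194 and 197 CPM in the vector control against 216, 209 and 207 CPM in Malt1-WT (log2 fold change 0.11, SE 0.033, adjusted p = 0.00254). Galnt7, which prefers peptides that already carry a sugar, fell from 89.2, 80.9 and 85.1 CPM to 66.1, 71.0 and 62.3 CPM (log2 fold change -0.35, SE 0.048, adjusted p = 1.05e-08). The change of Galnt7 was 1.28-fold, and the groups did not overlap for either gene. Galnt11, known for acting on Notch1, was at 25.8, 24.3 and 25.6 CPM and 26.6, 28.6 and 29.9 CPM (log2 fold change 0.17, adjusted p = 0.037), close to the threshold. Leaving out replicate 2 or 3 of either group ended the call of Galnt11 (adjusted p of 0.0564 to 0.186), as did DESeq2 (0.0807), upper quartile factors (0.0636), library size only (0.261) and no low-count filter (0.0951). Galnt1 was not called with library size only (log2 fold change 0.04, adjusted p = 0.333). Galnt2 (log2 fold change -0.13, adjusted p = 0.778) and Galnt4 (-0.06, adjusted p = 0.56) did not pass, and the exons of Galnt4 overlap Poc1b on the same strand, so their reads cannot be told apart.

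Per kilobase of exon, Galnt1 made up 57.7% ± 0.914 (SD, n = 3) of the summed level of this group in the vector control and 61.9% ± 1.54 in Malt1-WT. Galnt7 made up 26.5% ± 0.983 and 20.5% ± 0.856, Galnt3 1.64% ± 0.126 and 4.21% ± 0.537, and Galnt15 1.08% ± 0.119 and 0.0188% ± 0.00849. The summed level of the group overlapped between the vector control (60.0 to 61.8 CPM per kb) and Malt1-WT (60.0 to 63.0 CPM per kb). The genes with the largest fold changes thus held a small share of the transcripts for this step.

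The 4 tested genes of O-glycan cores and branches all passed, 2 higher and 2 lower (median log2 fold change -0.03), and 4 of 8 were not tested. C1galt1, the core 1 synthase, fell from 99.9, 105 and 104 CPM to 84.7, 86.8 and 90.6 CPM (log2 fold change -0.24, SE 0.042, adjusted p = 2.18e-06). C1galt1c1, which encodes the chaperone that C1galt1 needs to fold, rose from 16.0, 15.5 and 18.2 CPM to 20, 21.2 and 21.9 CPM (0.35, SE 0.085, adjusted p = 4.45e-04). The enzyme and its chaperone thus moved in opposite directions, each with groups that did not overlap. Per kb of exon, the ratio of C1galt1 to C1galt1c1 was 1.48, 1.62 and 1.36 in the vector control against 1.01, 0.973 and 0.983 in Malt1-WT.

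Gcnt1, the core 2 branching enzyme, fell from 34.2, 35.2 and 36.7 CPM to 24.6, 26.8 and 24.2 CPM (log2 fold change -0.49, SE 0.068, adjusted p = 1.57e-08). Gcnt2, which makes the branched I antigen, rose from 62.4, 59.5 and 66.6 CPM to 70.6, 69.4 and 72.9 CPM (0.17, SE 0.049, adjusted p = 0.00166). Gcnt1 was lower in every Malt1-WT library and Gcnt2 higher, and the change of Gcnt2 was not called with library size only (0.10, adjusted p = 0.0739). The summed level per kb of this group overlapped, at 42.4 to 45.6 CPM per kb in the vector control and 42.3 to 44.9 CPM per kb in Malt1-WT.

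Chain extension genes held the highest summed level. Of 17, 8 were tested, with 5 higher, 2 lower and 1 without a call (median log2 fold change 0.32). B4galt3, a β1,4-galactosyltransferase of N-acetyllactosamine synthesis (chromosome 1, 171270328 to 171276896, plus strand), was at 6.68, 7.61 and 8.45 CPM in the vector control against 37.0, 37.5 and 38.3 CPM in Malt1-WT. The groups were far apart, with a log2 fold change of 2.30 (SE 0.087, adjusted p = 7.93e-29), the largest increase among the tested members. Exons of Ppox overlap B4galt3 on the opposite strand. Ppox was counted 136, 144 and 143 times in the vector control and 172, 172 and 160 times in Malt1-WT, while B4galt3 went from 121, 155 and 170 counts to 661, 751 and 655. The sources used here do not give the strand setting of the counting, and the part of Ppox reads in B4galt3 was not tested.

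B4galt1, the widely expressed galactosyltransferase that also forms lactose synthase in the mammary gland, fell from 174, 168 and 171 CPM to 137, 135 and 134 CPM (log2 fold change -0.33, SE 0.035, adjusted p = 7.53e-12). B4galt5, a lactosylceramide synthase, rose from 149, 155 and 154 CPM to 186, 184 and 192 CPM (0.29, SE 0.035, adjusted p = 2.04e-10). B4galt1 had the highest level per kb of all tested members in the vector control (40.3 ± 0.698 CPM per kb, SD, n = 3). In Malt1-WT that place went to B4galt5 (43.5 ± 1.02 CPM per kb), with B4galt1 at 32.0 ± 0.400 CPM per kb. Undivided by exon length, Galnt1 led all tested members, with mean CPM of 195 (vector control) and 211 (Malt1-WT). The ratio of B4galt3 to B4galt1 per kb was 0.0298, 0.0352 and 0.0383 in the vector control against 0.209, 0.216 and 0.221 in Malt1-WT, so B4galt1 stayed the more abundant of the pair in every library.

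B4galt2, a further β1,4-galactosyltransferase, fell from 27.5, 28.0 and 29.0 CPM to 16.9, 23.6 and 20.8 CPM, with an uneven Malt1-WT group (log2 fold change -0.46, SE 0.083, adjusted p = 3.69e-06). Its exons overlap Slc6a9 on the opposite strand, which moved the other way (316, 398 and 386 counts to 808, 1006 and 828). B3gnt9 rose from 8.67, 6.88 and 8.90 CPM to 11.3, 10.9 and 11.3 CPM (0.46, adjusted p = 6.79e-04). Exons of the more abundant D230025D16Rik (36.0 and 32.4 CPM) overlap B3gnt9 on the opposite strand. D230025D16Rik moved the other way (-0.15, edgeR adjusted p = 0.037). B3gnt2, the main enzyme of poly-N-acetyllactosamine chains, rose from 7.29, 7.51 and 5.62 CPM to 8.22, 8.54 and 9.71 CPM (0.37, adjusted p = 0.0116). Leaving out replicate 3 of the vector control (0.25, adjusted p = 0.13) or of Malt1-WT (0.30, adjusted p = 0.0803) ended the call of B3gnt2. B3gnt3, which extends core 1 O-glycans, rose by 0.19, and B3galt4, of ganglioside synthesis, did not pass (0.35, SE 0.278, adjusted p = 0.278). The summed level of the group was 107 to 109 CPM per kb in the vector control and 116 to 118 CPM per kb in Malt1-WT, without overlap.

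Both genes of the linker between glycosaminoglycan chains and their core proteins were tested. B4galt7 rose from 21.8, 24.1 and 20.8 CPM to 29.6, 28.7 and 29.2 CPM (log2 fold change 0.39, SE 0.073, adjusted p = 8.05e-06). B3galt6 was at 5.85, 7.32 and 7.61 CPM and 8.28, 7.79 and 8.01 CPM and did not pass the test (0.21, SE 0.130, adjusted p = 0.168), although its groups did not overlap.

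**Figure D2:**
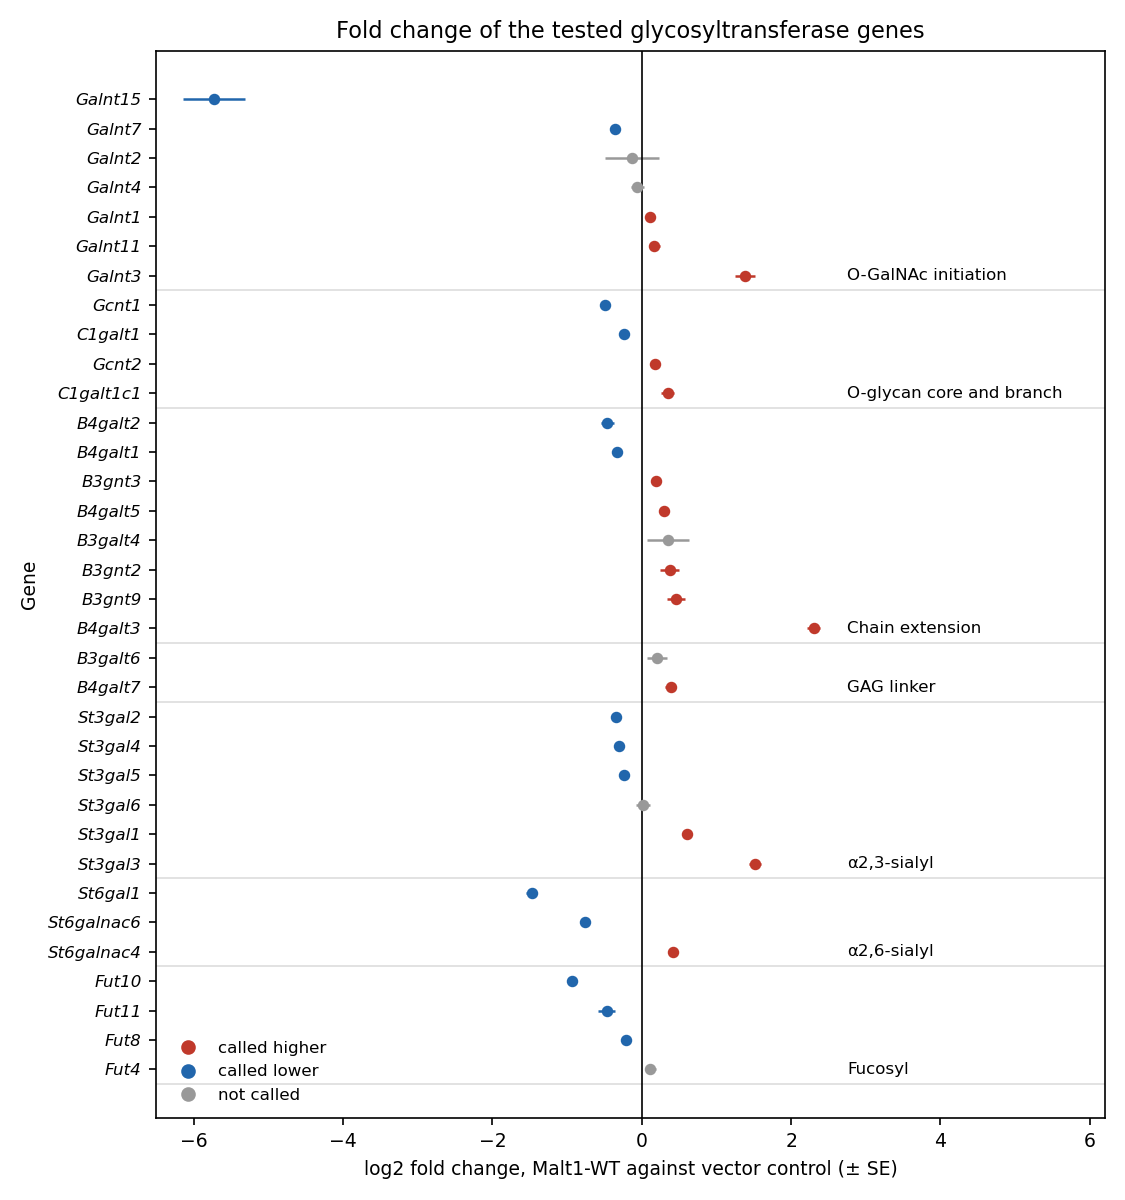
log2 fold change of each tested member in Malt1-WT against the vector control (x axis, points with bars of ± SE), ordered by role, in red for genes called higher, blue for genes called lower and grey for genes not called. B4galt3 (2.30) and Galnt15 (-5.73) lie farthest from 0, and most other members lie within 1 of it.

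All 6 genes of α2,3-sialyltransferases were tested, 2 higher, 3 lower and 1 without a call (median log2 fold change -0.11). St3gal3, which caps N-acetyllactosamine on glycoproteins (chromosome 4, 117932154 to 118134914, minus strand), was at 13.4, 13.1 and 12.4 CPM in the vector control against 37.4, 36.3 and 37.4 CPM in Malt1-WT. The libraries within each group were close together, and the log2 fold change was 1.52 (SE 0.076, adjusted p = 1.23e-23). St3gal1, which caps core 1 O-glycans (chromosome 15, 67102875 to 67176830, minus strand), rose from 115, 117 and 119 CPM to 177, 179 and 177 CPM (0.60, SE 0.036, adjusted p = 8.01e-21). St3gal4, another enzyme of N-acetyllactosamine and of sialyl Lewis x, fell from 73.8, 70.0 and 72.3 CPM to 58.7, 58.2 and 58.5 CPM (-0.30, SE 0.047, adjusted p = 2.90e-07). Exons of the less abundant 4930581F22Rik (7.21 and 9.54 CPM) overlap St3gal4 on the opposite strand. St3gal2, which acts on core 1 and on gangliosides, fell from 98.2, 91.6 and 92.3 CPM to 74.1, 70.5 and 78.4 CPM (-0.34, SE 0.045, adjusted p = 4.79e-09). For each of these 4 genes the groups did not overlap.

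St3gal5, the synthase of the ganglioside GM3, fell by 0.24 on the log2 scale (SE 0.058, adjusted p = 3.62e-04). St3gal6, at 16.8, 14.0 and 15.3 CPM and 15.9, 15.5 and 15.4 CPM, did not pass (0.02, SE 0.092, adjusted p = 0.859). Its exons overlap the more abundant Dcbld2 (114 and 156 CPM) on the opposite strand. Per kb, the order within the family changed: St3gal4 had the largest share in the vector control (28.6% ± 0.457) and St3gal1 in Malt1-WT (28.1% ± 0.487). Undivided by exon length, St3gal1 led both groups, with mean CPM of 117 (vector control) and 178 (Malt1-WT). The change of the leading gene therefore rests on the exon lengths used. The share of St3gal3 per kb went from 5.43% ± 0.156 to 14.5% ± 0.121. The summed level was 84.5 to 89.0 CPM per kb in the vector control and 91.2 to 93.5 CPM per kb in Malt1-WT. The log2 ratio of the mean summed levels was 0.10 for this family, 0.02 with library size only and 0.17 when counts were summed without dividing by length. For chain extension it was 0.11, and 0.03 with library size only.

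Of 8 genes of α2,6-sialyltransferases 3 were tested and all passed, 1 higher and 2 lower (median log2 fold change -0.76). St6gal1, the enzyme that places α2,6-linked sialic acid on N-glycans (chromosome 16, 23224740 to 23360350, plus strand), was at 45.8, 44.8 and 46.1 CPM in the vector control against 16.2, 15.9 and 17.2 CPM in Malt1-WT. The groups were well apart, with a log2 fold change of -1.47 (SE 0.069, adjusted p = 7.11e-25). The overlapping opposite-strand transcript BC106179 had 0 to 9 counts per library. St6galnac6, which makes α-series gangliosides, fell from 46.6, 44.8 and 48.5 CPM to 30.5, 27.3 and 24.7 CPM (-0.76, SE 0.066, adjusted p = 1.60e-14). St6galnac4, which adds the second sialic acid to sialylated core 1, rose from 43.8, 47.5 and 41.6 CPM to 59.6, 60.9 and 57.4 CPM (0.42, SE 0.055, adjusted p = 3.51e-09).

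St6galnac4 (chromosome 2, 32587095 to 32599698) and St6galnac6 (32599709 to 32620806) lie head to tail on the plus strand with 10 bases between them in the annotation, yet they moved in opposite directions. The ratio of St6galnac6 to St6galnac4 per kb was 1.43, 1.27 and 1.57 in the vector control against 0.689, 0.604 and 0.579 in Malt1-WT. B4galt2 and St3gal3 are also neighbours, with 48.7 kb between them on the minus strand of chromosome 4, and also moved in opposite directions. The summed level of the α2,6 group was 25.8 to 25.9 CPM per kb in the vector control and 17.5 to 18.8 CPM per kb in Malt1-WT, without overlap. In it, the share of St6gal1 went from 35.8% ± 0.448 to 18.4% ± 1.41 and that of St6galnac4 from 26.4% ± 1.85 to 50.3% ± 1.30 (SD, n = 3 each).

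Of 8 fucosyltransferase genes 4 were tested, with 0 higher, 3 lower and 1 without a call (median log2 fold change -0.34, edgeR). Fut10, now counted among the enzymes that add fucose to protein in the endoplasmic reticulum (chromosome 8, 31187331 to 31261738, plus strand), fell from 70.6, 69.0 and 73.7 CPM to 36.5, 35.7 and 39.2 CPM (log2 fold change -0.94, SE 0.054, adjusted p = 3.23e-21). Its relative Fut11 fell from 11.1, 12.4 and 11.9 CPM to 8.73, 7.44 and 9.59 CPM (-0.47, SE 0.115, adjusted p = 4.11e-04). Fut8, the enzyme of core fucose on N-glycans, fell from 56.5, 56.6 and 56.5 CPM to 47.9, 49.6 and 48.8 CPM (-0.21, SE 0.052, adjusted p = 4.12e-04). Fut4, an enzyme of Lewis x synthesis, was at 27.4, 30.7 and 31.9 CPM and 28.5, 34.8 and 34.3 CPM and did not pass (0.12, adjusted p = 0.169). Without Malt1-WT replicate 1 it was called higher (0.19, adjusted p = 0.0229). The 3 called genes were called lower under all 14 alternatives. The summed level of the group went from 30.7 to 32.6 CPM per kb in the vector control to 22.5 to 24.8 CPM per kb in Malt1-WT. Much of this fall lay in Fut10, which went from 14.2 to 7.42 CPM per kb on average. Its share went from 44.9% ± 1.04 to 31.3% ± 1.23 (SD, n = 3), while Fut4 was at 7.37 and 7.99 CPM per kb.

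**Figure D3:**
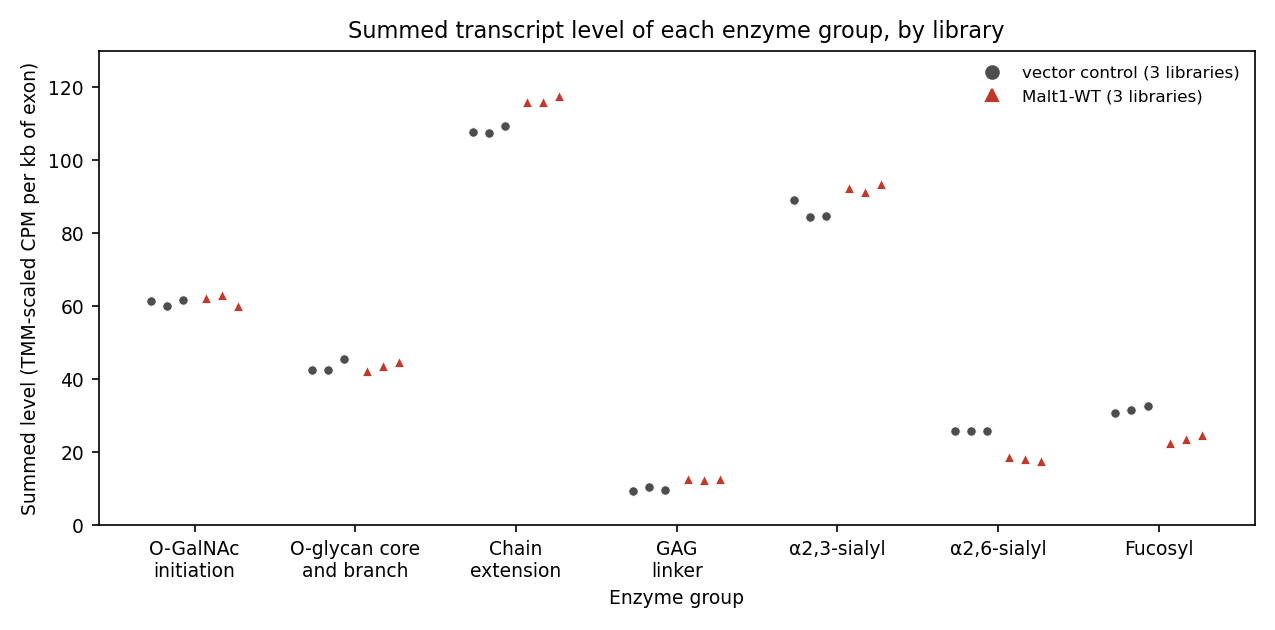
Summed level of each enzyme group with tested members in TMM-scaled CPM per kb of exon (y axis), with 1 point per library (circles, vector control; triangles, Malt1-WT). The α2,6-sialyltransferase and fucosyltransferase groups lie lower in all 3 Malt1-WT libraries (17.5 to 18.8 and 22.5 to 24.8). The chain extension, glycosaminoglycan linker and α2,3-sialyltransferase groups lie higher in all 3, and the groups for O-GalNAc initiation and for cores and branches overlap. Within the fucosyltransferase group, Fut10 went from 14.2 to 7.42 CPM per kb on average, Fut8 from 7.15 to 6.18, Fut11 from 2.78 to 2.02 and Fut4 from 7.37 to 7.99.

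Enzymes that use the same acceptor were set side by side as ratios within each library, which do not depend on library scaling. The pairs were picked after the values were seen, so the ratios are a description. St6gal1 and the enzymes St3gal3, St3gal4 and St3gal6 cap the same N-acetyllactosamine ends, with α2,6 and α2,3 linkage. Per kb, the ratio of St6gal1 to the sum of these 3 was 0.284, 0.294 and 0.296 in the vector control against 0.0909, 0.0909 and 0.097 in Malt1-WT, 3.14-fold lower on average. St3gal1 and Gcnt1 both act on core 1, St3gal1 capping it and Gcnt1 branching it. Their ratio was 2.83, 2.80 and 2.72 in the vector control against 6.07, 5.61 and 6.16 in Malt1-WT, 2.14-fold higher. For both ratios all Malt1-WT libraries lay on one side of all vector control libraries. St3gal2, which also acts on core 1, is left out of the St3gal1 to Gcnt1 ratio. It fell from 18.7 ± 0.712 to 14.7 ± 0.777 CPM per kb (SD, n = 3). Enzyme protein, activity and the glycans themselves were not measured.

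**Figure D4:**
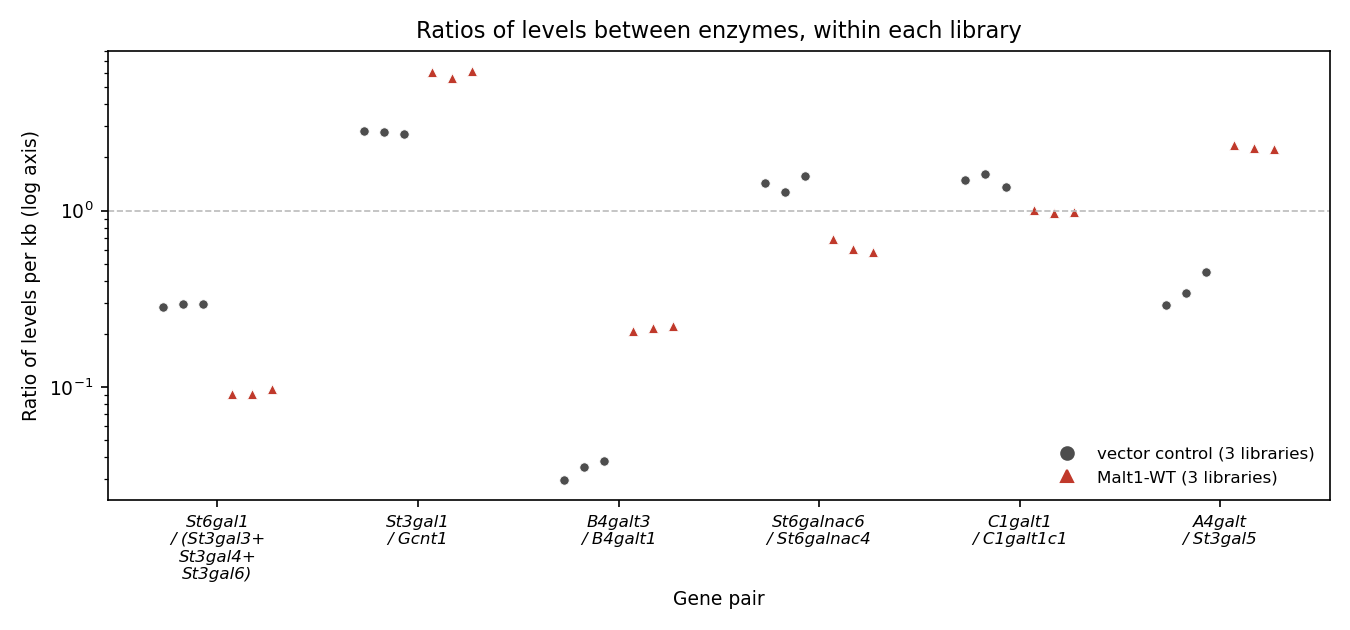
Ratio of levels per kb of exon between named genes (x axis) within each library on a log axis, with circles for the vector control and triangles for Malt1-WT. The ratio of St6gal1 to St3gal3, St3gal4 and St3gal6 together is 0.284 to 0.296 in the vector control and 0.0909 to 0.097 in Malt1-WT, and that of A4galt to St3gal5 is 0.291 to 0.447 and 2.24 to 2.36.

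Other genes of glycosylation were taken from lists chosen by function. In glycolipid synthesis, A4galt, the synthase of globotriaosylceramide, rose from 15.1 ± 2.43 to 82.0 ± 2.58 CPM (SD, n = 3, log2 fold change 2.44, SE 0.068, adjusted p = 5.03e-34). Ugcg, which makes the glucosylceramide that B4galt5 extends, rose by 0.65 (SE 0.038, adjusted p = 7.10e-21). A4galt and St3gal5 use the same lactosylceramide, and their ratio per kb was 0.291, 0.341 and 0.447 in the vector control against 2.36, 2.25 and 2.24 in Malt1-WT. In their list of 15 tested glycosyltransferases, 5 were higher, 4 lower and 6 without a call. Lfng, which extends fucose on Notch, rose by 0.50 (3.57 to 5.08 CPM, edgeR adjusted p = 0.00938). Rfng, of the same family, fell from 30.3 to 22.8 CPM (-0.41, adjusted p = 2.76e-06), and Mfng did not pass (0.55, adjusted p = 0.0607). Pofut1 fell from 72.5 to 57.6 CPM (-0.33, adjusted p = 8.16e-08).

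Of 17 tested genes for UDP-sugars 7 were higher, 2 lower and 8 without a call. The hexosamine pathway genes Pgm3 (log2 fold change 0.89) and Gfpt1 (0.75) and the UDP-galactose transporter gene Slc35a2 (0.65) rose most. Of 4 tested genes for sialic acid, 1 was higher, Cmas (0.47), the enzyme that activates sialic acid, and 0 lower, with 3 without a call. Of 6 for GDP-fucose, 2 were higher and 1 lower, the Golgi GDP-fucose transporter gene Slc35c1 rising by 0.58, Slc35c2 by 0.27, and the GDP-fucose synthesis gene Gmds falling by 0.56 on the log2 scale. With library size only, 1 gene for sialic acid and 2 for GDP-fucose were lower. All genes named here had an adjusted p of at most 4.36e-05.

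In the N-glycan pathway, 5 of 8 tested trimming genes were lower, 2 higher and 1 without a call (median -0.18). The Golgi mannosidase II genes Man2a2 (-0.86) and Man2a1 (-0.61, 315 ± 8.23 to 206 ± 2.30 CPM) fell, and Man1a rose by 0.52. Of 4 tested branching genes 1 was higher (Mgat4b, 0.23), 1 lower (Mgat2, -0.28) and 2 did not pass. Among 12 oligosaccharyltransferase subunit genes 6 were higher and 2 lower, from Ost4 (-0.29) to Krtcap2 (0.28) and Magt1 (0.36). With library size only, these counts were 3 and 4.

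On the side of removal and recognition, 5 of 9 tested exoglycosidase genes were higher and 0 lower, with 4 without a call (1 lower with upper quartile factors and 2 with library size only). The sialidase genes Neu3 (0.97) and Neu1 (0.82) rose most. Of 7 tested galectin-list genes 2 were higher and 1 lower. Lgals8 rose from 35 to 72.4 CPM (1.05, SE 0.057, adjusted p = 3.34e-22), Lgals3bp rose by 0.41, and Lgals1 fell from 725 ± 20.1 to 585 ± 22.2 CPM (-0.31). Of 19 mucin and sialomucin genes only 5 were tested. Of these, 3 did not pass, among them the abundant Cd164 at 566 and 548 CPM (-0.046, edgeR adjusted p = 0.148). The 2 called were near or below 1 CPM, Muc5ac (0.937 and 0.125 CPM) and Podxl (0.154 and 0.691 CPM), named after their values were seen. Muc5ac was counted 16, 17 and 22 times in the vector control and 0, 4 and 3 times in Malt1-WT, and Podxl 3 times in each vector control library and 15, 13 and 10 times in Malt1-WT. Each passed the low-count filter only through the group where it is high.

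**Figure D5:**
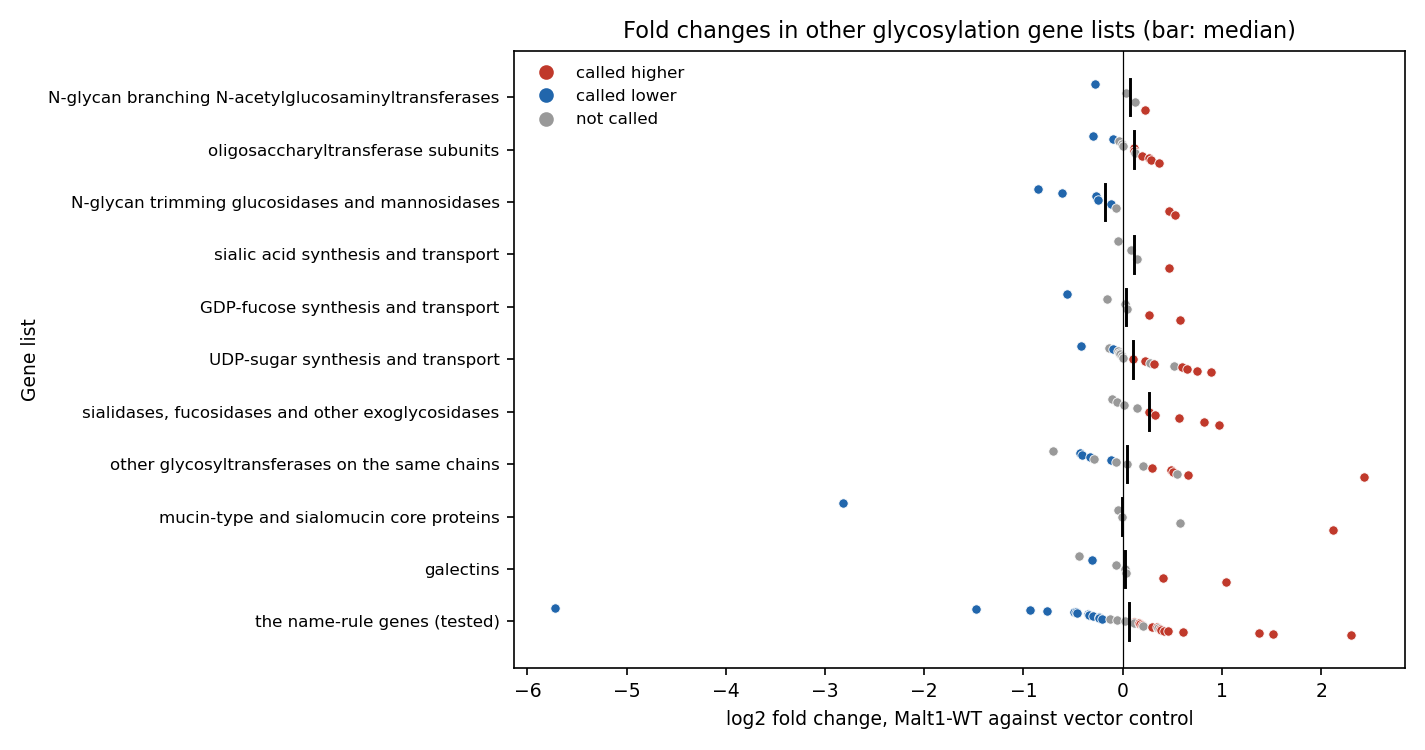
log2 fold change in Malt1-WT against the vector control (x axis) of the tested genes of each glycosylation list (1 point per gene, red called higher, blue called lower, grey not called), with a bar at the list median, beside the glycosyltransferase genes chosen by name. A4galt (2.44) lies farthest to the right, and every list with a called gene other than the sialic acid and exoglycosidase lists holds both red and blue points.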

How the data were processed

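RNA from 6 libraries of E0771 cells was sequenced. Per the labels' protocols, RNA was isolated with RNAiso Plus and a directional NEBNext Ultra II kit gave the libraries. The submitters' processing notes name the build GRCm38.p6 (mm10), featureCounts 1.6.3, STAR 2.7.3a and Trim Galore 0.6.0. The authors deposited raw counts per gene symbol. The deposited table also holds the authors' log2 fold change and mean log2 expression, a score (the t statistic) and p-values, but the sources used here do not name the tool behind them.

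Genes were kept by filterByExpr (minimum count 10), scaled by TMM (factors 0.973 to 1.03) and tested with edgeR 4.0.16 (R 4.3.3, robust quasi-likelihood, no block), with Benjamini-Hochberg adjustment over 13594 genes and a threshold of 0.05. The SE is the log2 fold change divided by the root of F. CPM are TMM-scaled, and levels per kb use GENCODE M21 exon lengths (GRCm38), which may differ from the annotation used for counting. Promoters came from RefSeq (GRCm38.p6), found for 26 of the 34 tested members. Per-library values are given for up to 4 called members with the largest change in each enzyme group and its most abundant member, and for the other lists up to 3 called genes whose log2 CPM averages 1 or more, by size of change. A gene that this rule names is not reported here. The other named genes were chosen after their values were seen. The enzyme groups, gene lists and members were chosen with earlier results of these data known. Summed levels and ratios were not tested. Libraries within a group differed by 2.19 to 3.03 per degree of freedom in a chi-square test over genes, so all 6 were kept. Alternatives were RLE, upper quartile or no factors, DESeq2 1.42.0, other filters, a fit that was not robust, a replicate block, and leaving out each library.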

Additional observations from a re-analysis of the deposited data

How the results depend on the processing

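Of the 28 called members, 25 kept their call and direction with library size only, 26 to 28 when 1 library was left out, 27 with DESeq2, upper quartile factors or no low-count filter, and 28 with RLE factors, a minimum count of 50, the fit that was not robust and the replicate block. Calls were lost for Galnt11, Galnt1, Gcnt2 and B3gnt2, and Fut4 was the single gene added. Leaving out 1 library gave 12 to 15 members higher and 14 lower. Over the 14 alternatives, the log2 fold change of B4galt3 was 2.22 to 2.39, of St3gal3 1.44 to 1.53, of Galnt3 1.26 to 1.46, of St6gal1 -1.55 to -1.46 and of Galnt15 -6.12 to -5.51. Among the 34 tested members, signs turned only for genes that did not pass. With 1 library left out, Galnt2 ranged from -0.35 to 0.0117, Galnt4 from -0.15 to 0.0113 and St3gal6 from -0.045 to 0.081. The turned values were those of Galnt2 without vector control replicate 1 (0.0096) and without Malt1-WT replicate 2 (0.0117), Galnt4 without Malt1-WT replicate 3 (0.0113), and St3gal6 with library size only (-0.055) and without vector control replicate 2 (-0.045). The cause was not tested. Library size only moved the median of all genes from -0.0029 to -0.079. For the log2 ratio of summed levels, the values that moved by more than the replicate spread with library size only were -0.062 (initiation), -0.075 (cores and branches), 0.032 (chain extension), 0.025 (α2,3) and -0.58 (α2,6), against 0.014, 0.00077, 0.11, 0.10 and -0.51, so the sums for initiation and for cores and branches, which overlap between the groups, turned sign. Without dividing by length they were -0.089 (cores and branches), 0.17 (α2,3) and -0.41 (α2,6).

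The titles give both groups replicate numbers 1 to 3, but same-numbered libraries did not deviate together (correlations of -0.0261, -0.0207 and 0.0174). No pairing by number was seen, but these correlations cannot show whether same-numbered libraries were prepared together. With the replicate block, 4134 genes were higher and 4034 lower, against 4210 and 4110 without it, and 14 members were higher and 14 lower in both fits. Depth limits the size of the Galnt15 change, which rests on 4 counts in Malt1-WT.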
